A study of Mus musculus with 4 samples.

Results

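The genes described here are 10 genes of cytokine signalling, the 4 JAK kinase genes Jak1, Jak2, Jak3 and Tyk2 and the 6 receptor genes Il6st, Il6ra, Lifr, Osmr, Cntfr and Il11ra1. They were chosen by name. A STAT3 peak belonged to a gene when its centre lay inside the RefSeq gene (build GRCm38.p6) or within 50 kb on either side. By this rule the 10 genes, of 21887 protein-coding genes, held 30 of the 36249 peaks of the spinal cord injury (SCI) list and 63 of the 88765 peaks of the sham list, with each peak counted once.

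The study used STAT3 ChIP-seq, the sequencing of DNA pulled down with an antibody to STAT3, on dissociated cells of the lesion epicentre of C57BL/6 mice. SCI mice had a moderate contusion of 60 kdyn to the exposed cord at thoracic level 9 and were studied 7 days later. Sham mice had a laminectomy at the same level and the same 7 days, and the labels used here give no age. Each of the 2 conditions had 1 STAT3 library and 1 input library, and each library pooled tissue of 3 mice, so no difference between SCI and sham given here has a replicate check. No sort for a cell type is described in the labels' protocols. In such mixed tissue, binding in fewer cells and weaker binding per cell cannot be told apart. The peak lists hold no read counts, so the depth of the libraries is unknown, and the input libraries were not analysed here.

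In this pathway a cytokine of the interleukin-6 family joins its own receptor chain to gp130, the shared signalling chain encoded by Il6st. JAK kinases bound to the receptor tails then phosphorylate each other, the receptor and STAT3, which dimerises and enters the nucleus. In injured spinal cord, reactive astrocytes are a well-known site of this signalling.

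All 10 genes had peaks in both lists, but at this window so did most genes. An SCI peak lay at 10 of the 10 genes, where 84.2% of all protein-coding genes had one, and a sham peak at 10 of 10, where 95.6% did. Longer genes have larger windows, so the 10 genes were also set beside genes of like length, those in the same of 10 equal length classes of protein-coding genes. In these the shares were 90.3% for SCI and 98.3% for sham. With the gene alone and no flanks, 6 of the 10 genes held an SCI peak, where 33.4% of all protein-coding genes and 53.6% of those of like length did. In the sham list 8 of the 10 held one, where 51.0% of all and 77.4% of those of like length did. The counts for the 10 genes thus lay near those of genes of like length.

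**Figure D1:**
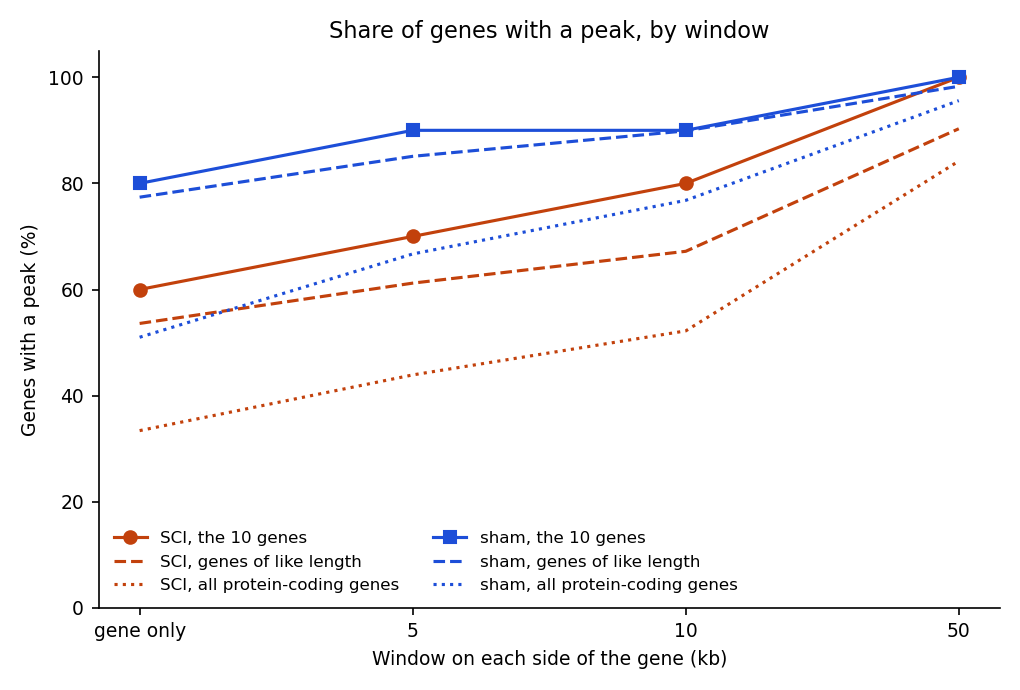
Percent of genes with a peak (y axis) when the window on each side of the gene is 0, 5, 10 or 50 kb (x axis), for the 10 genes (solid lines, SCI circles and sham squares), genes in the same length classes (dashed) and all protein-coding genes (dotted). At 50 kb the solid lines reach 10 of 10 genes in both lists, and the dashed lines stand at 90.3% in SCI and 98.3% in sham.

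SCI peaks at the 10 genes were about as many as at other genes and mostly low in their list. The median over the 10 genes was 3 SCI peaks and 6 sham peaks, and over all protein-coding genes 2 and 5. Per 100 kb of gene and flanks the medians were 1.87 SCI and 4.34 sham peaks at the 10 genes, and 1.58 and 3.91 over all protein-coding genes. With the sham list shortened to as many top-scoring peaks as the SCI list has, 30 SCI and 30 sham peaks stood at the 10 genes. The authors' score per peak was used only to rank peaks within a list, since no source used here says that both lists share a scale. Of the 30 SCI peaks, 1 lay in the top 10% of its list, and 20 lay below the middle of it. Of the 63 sham peaks, 10 lay in the top 10% and 27 below the middle. Counted by gene, 1 of the 10 genes had an SCI peak in the top 10%, where 22.5% of all protein-coding genes and 26.2% of those of like length did. Such a sham peak was found at 6 of the 10, where 45.0% of all and 52.0% of those of like length had one. The one SCI peak was at Jak1. The sham peaks were at Jak1, Jak3, Tyk2, Il6st, Il6ra and Osmr.

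**Figure D2:**
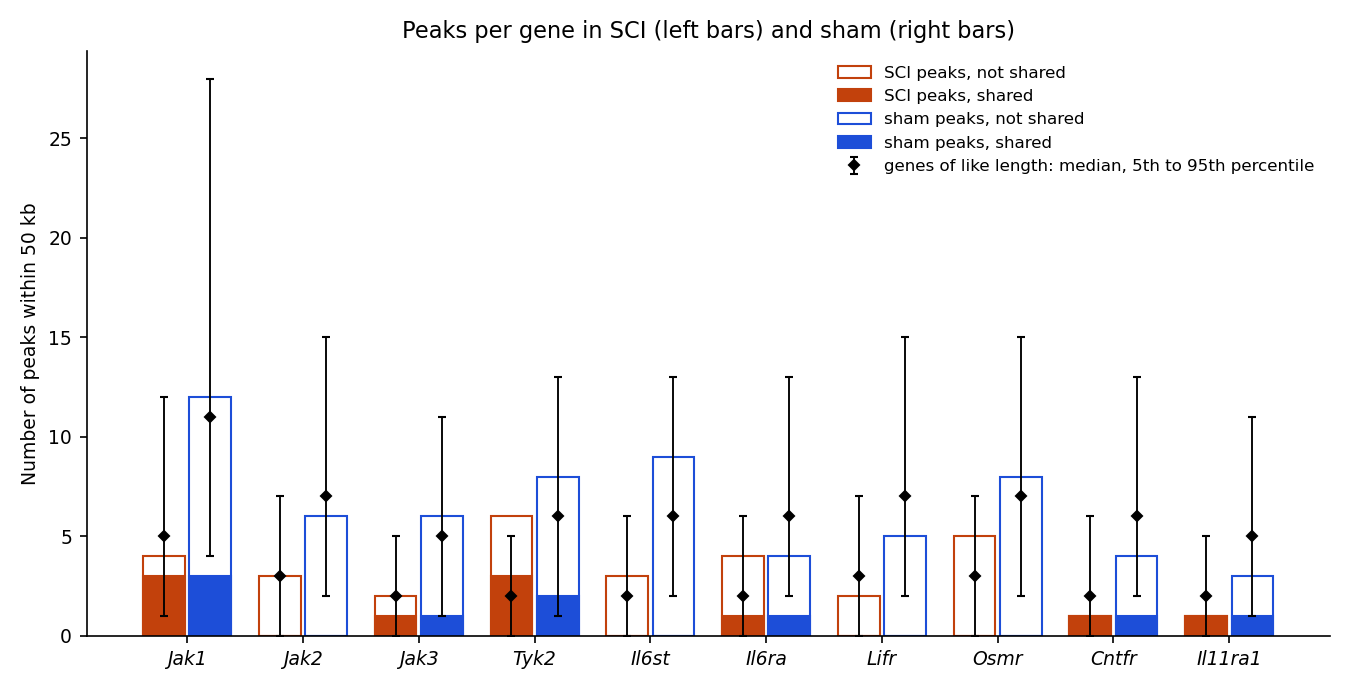
Number of peaks within 50 kb of each gene (y axis), SCI at the left and sham at the right of each pair, with the shared part filled. Black diamonds and lines give the median and the 5th to 95th percentile over protein-coding genes in the same length class. Only the 6 SCI peaks at Tyk2 lie above their line, whose upper end is 5.

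Peaks of both lists met at 6 of the 10 genes, namely Jak1, Jak3, Tyk2, Il6ra, Cntfr and Il11ra1. A position was called shared when peaks of the 2 lists overlapped by at least 1 bp. Such a position lay within 50 kb of 41.5% of all protein-coding genes and of 47.7% of those of like length. In all, 9 of the 30 SCI peaks were shared, 30.0% (95% exact binomial interval 14.7 to 49.4%), where 21.6% of the whole SCI list was. From the other side 8 of the 63 sham peaks were shared, 12.7% (5.65 to 23.5%), where 8.84% of the whole sham list was. Both intervals, which cover counting error only, contain the share of the whole list. All intervals given here treat peaks as independent and may be too narrow. The 3 shared SCI peaks of Jak1 stood within 6072 bp, and 2 of those at Tyk2 met the same sham peak. When the overlap had to cover 0.5 of the length of both peaks, 4 SCI peaks were shared, 13.3%, all at Jak1 and Tyk2. Of 15 SCI peaks at the kinase genes 7 were shared by the 1 bp rule, 46.7% (21.3 to 73.4%), and of 15 at the receptor genes 2 were, 13.3% (1.66 to 40.5%). Jak1 and Tyk2 held 3 each. Without Jak1 the shared peaks were 6 of 26 in SCI, 23.1%, and 5 of 51 in sham, 9.80%.

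**Figure D3:**
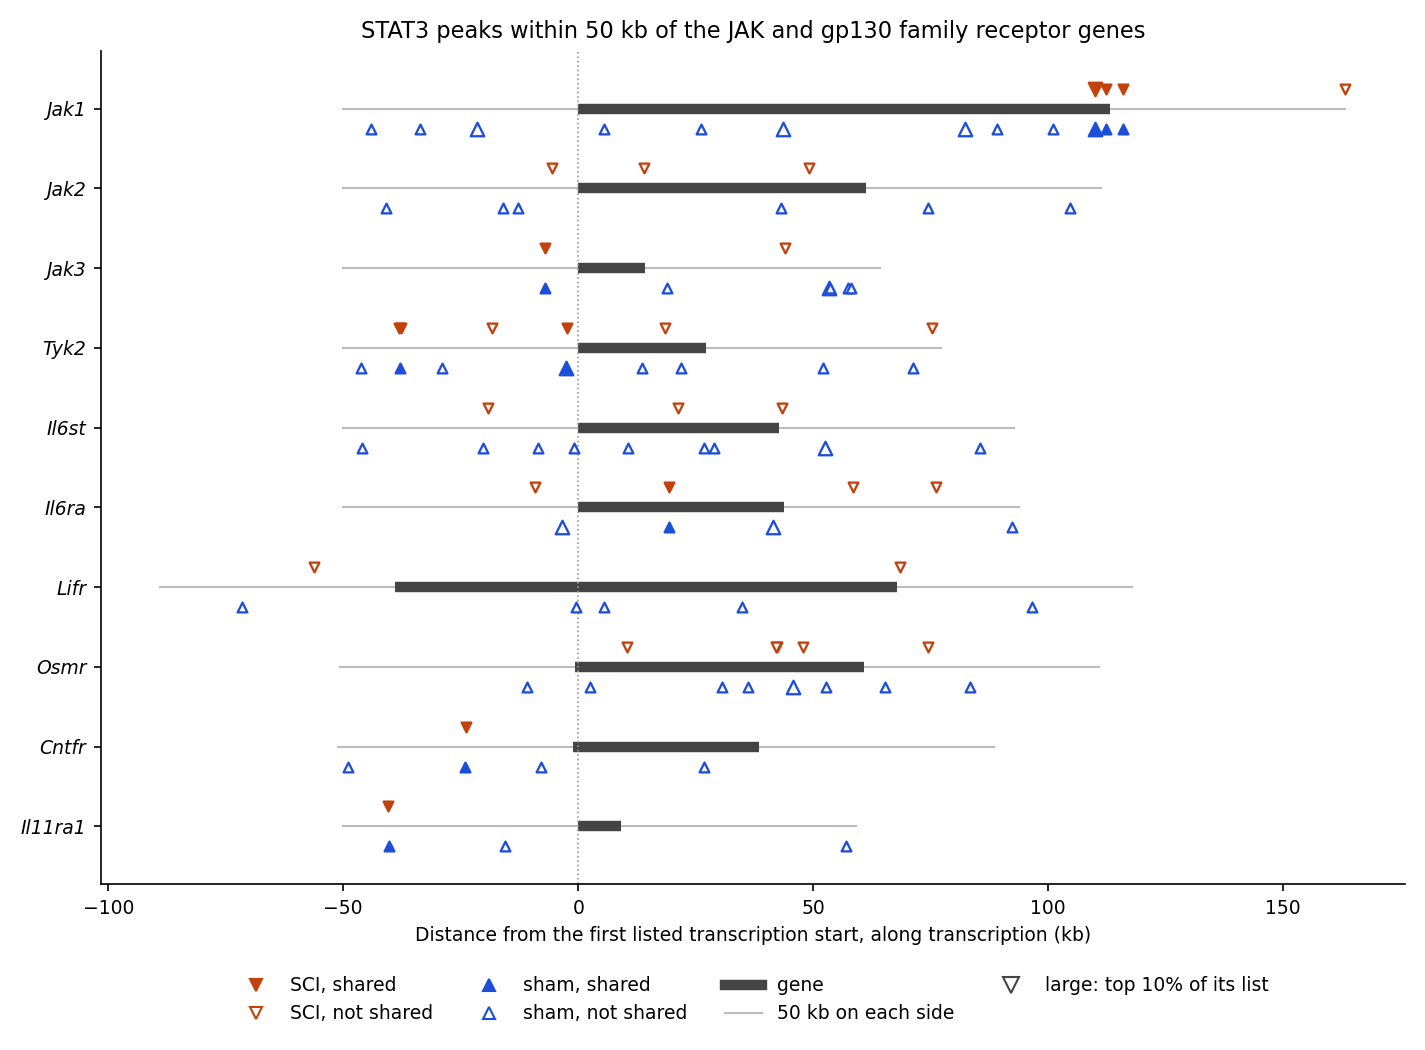
Position of every peak, with SCI triangles above and sham triangles below each gene, against the distance in kb from the first listed transcription start along the direction of transcription (x axis). Filled triangles are shared positions and large ones lie in the top 10% of their list. The 3 filled SCI triangles of Jak1 stand at its far end, 109.9 kb and more from the start.

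No peak of either list overlapped a listed promoter window of the 10 genes. Such a window runs from 250 bases before to 50 bases after a start, and 0.682% of all 32851 windows overlapped an SCI peak and 1.69% a sham peak. Peak centres within 1 kb of a listed start were absent in SCI at all 10 genes, where 3.19% of protein-coding genes with a listed start had one. In sham they were present at 2 of the 10, Lifr and Il6st, where 7.29% of such genes had one. The sham peak at Lifr lay 426 bp before the start and ended 81 bp short of the window, and that at Il6st lay 997 bp before the start. The nearest SCI peak to any start of the 10 genes was a shared one, 2490 bp before that of Tyk2. The palindromic STAT motif TTCNNNGAA was absent from all 17 listed promoter windows of the 10 genes, while 8.3% of all promoter windows hold it. Of the 17 windows 6 belong to Cntfr and some of those overlap, so the 17 are not separate stretches. Absence says only that these letters are not in these windows.

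The 250 bases before the start are printed for the 2 genes with a sham peak within 1 kb (Lifr, first of its 2 listed starts, and Il6st), for the gene with the shared position nearest a start (Tyk2) and for the gene with the highest SCI peak (Jak1). They are RefSeq sequences of GRCm38.p6, read 5′ to 3′ along the gene, from chr15:7129322-7129571 (plus strand), chr13:112463820-112464069 (plus strand), chr9:21131276-21131525 (minus strand) and chr4:101265224-101265473 (minus strand). Capitals mark every TTC and GAA, the outer letters of the STAT motif, which would need 3 bases between them.
Lifr: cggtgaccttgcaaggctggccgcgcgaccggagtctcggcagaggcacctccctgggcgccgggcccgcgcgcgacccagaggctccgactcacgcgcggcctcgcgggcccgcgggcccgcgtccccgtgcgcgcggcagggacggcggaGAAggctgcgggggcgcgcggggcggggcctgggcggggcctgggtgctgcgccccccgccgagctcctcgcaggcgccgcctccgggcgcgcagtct
Il6st: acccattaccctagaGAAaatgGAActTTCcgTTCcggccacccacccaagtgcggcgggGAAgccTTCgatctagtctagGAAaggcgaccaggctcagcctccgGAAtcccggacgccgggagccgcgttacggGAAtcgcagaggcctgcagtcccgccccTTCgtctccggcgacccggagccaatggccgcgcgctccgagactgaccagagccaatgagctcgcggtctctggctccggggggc
Tyk2: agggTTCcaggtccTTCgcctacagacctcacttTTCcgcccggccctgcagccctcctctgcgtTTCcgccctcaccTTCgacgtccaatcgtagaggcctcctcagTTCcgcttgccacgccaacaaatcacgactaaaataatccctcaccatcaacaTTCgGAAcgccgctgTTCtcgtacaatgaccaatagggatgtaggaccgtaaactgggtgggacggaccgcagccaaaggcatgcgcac
Jak1: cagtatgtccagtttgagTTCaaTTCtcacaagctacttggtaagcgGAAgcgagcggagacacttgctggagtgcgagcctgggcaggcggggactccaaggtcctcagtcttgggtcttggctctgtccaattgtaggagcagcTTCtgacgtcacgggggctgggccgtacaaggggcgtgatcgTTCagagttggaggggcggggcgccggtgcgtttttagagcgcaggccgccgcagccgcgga

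Lifr has 0 TTC and 1 GAA before its start, in a window with 53 CpG dinucleotides. Over all promoter windows the median is 7 CpG. Il6st has 4 TTC and 6 GAA before its start, and its closest TTC with a GAA after it are 12 bases apart within the window. Tyk2 has 8 TTC and 1 GAA, with 1 base between the closest. Jak1 has 4 TTC and 1 GAA, and 21 bases lie between its closest.

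Jak1 encodes the kinase that gp130 signalling depends on most, and it carried the highest SCI peak of the 10 genes. It (gene ID 16451) lies on the minus strand of chromosome 4 from 101151974 to 101265282. Its 4 SCI peaks scored 29.5, 8.64, 6.23 and 5.83, and its 12 sham peaks scored from 5 to 30.4. In genes of like length the medians are 5 SCI and 11 sham peaks, so neither number stood apart. The highest SCI peak, at 101155214 to 101155377, ranked 277, in the top 0.764% of the SCI list. The sham peak over it, at 101155189 to 101155378, scored 30.4 and ranked 2338, in the top 2.63%. It was the highest Jak1 peak in each list. Of all protein-coding genes 2.03% had an SCI peak of that rank or better within 50 kb. The limit was the rank of Jak1 itself, singled out as the best of the 10 genes, and the share was not tested. It was not computed for genes of like length, which have larger windows than most genes.

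The shared positions of Jak1 stood together at the downstream end of the gene. A second lay inside Jak1, at 101152809 to 101152972 in SCI (score 8.64, top 36.4%) and 101152839 to 101153028 in sham (12.8, top 23.1%). The third lay 2587 bp beyond the end of Jak1 and inside its neighbour Raver2, an RNA-binding protein gene, at 101149306 to 101149469 in SCI (6.23, top 68.0%) and 101149295 to 101149484 in sham (11.8, top 26.6%). From the first to the last, the SCI peaks spanned 6072 bp, between 109.9 and 115.8 kb from the start of transcription. Having 3 or more shared SCI peaks within 50 kb was found at 3.99% of all protein-coding genes and at 12.5% of those in the length class of Jak1. The fourth SCI peak, also in Raver2, was not shared and lay at the very edge of the window, 49.97 kb from Jak1.

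Most sham peaks in the body of Jak1 met no SCI peak, as in the whole sham list, where 91.2% did not. Of 8 sham peaks inside the gene, 6 were unshared. The highest of these scored 26.6 (101182816 to 101183005, top 4.06%) and 23.7 (101221633 to 101221822, top 5.68%). Another high one lay 21.4 kb upstream of the gene (101286630 to 101286819, score 22.8, top 6.33%). The nearest sham peak to the start of Jak1 was 5.41 kb inside the gene, and no SCI peak lay nearer to it than 109.9 kb.

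Jak2, the kinase that also serves the receptors of erythropoietin and growth hormone, had no shared position. The gene (gene ID 16452) lies on the plus strand of chromosome 19 from 29251803 to 29313095. Its 3 SCI peaks scored 12.9, 5.93 and 5.71, and its 6 sham peaks scored 13.0, 7.65, 7.19, 6.64, 5.21 and 5.10. Closer in, the order was reversed, with 3 SCI peaks and 1 sham peak within 10 kb and 2 and 1 inside the gene. The highest SCI peak, at 29246244 to 29246407, lay 5.48 kb before the start in the top 13.9%, the second-best rank of an SCI peak among the 10 genes. The highest sham peak, at 29356403 to 29356592 in the top 22.1%, lay 43.4 kb downstream, inside Plgrkt, a plasminogen receptor gene. The highest Jak2 peaks of the 2 lists thus lay on opposite sides of the gene. In genes of like length the medians are 3 SCI and 7 sham peaks.

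Jak3, the lymphoid kinase that pairs with the common gamma chain of interleukin receptors, held no peak of either list inside the gene. It (gene ID 16453) lies on the plus strand of chromosome 8 from 71676383 to 71690577. Its 2 SCI peaks scored 5.74 and 5, so that Jak3 had the weakest best SCI peak of the 10 genes, and its 6 sham peaks scored from 5.05 to 26.3. The shared position lay 7.14 kb before the start in SCI (71669165 to 71669328, score 5.74, top 79.5%) and 7.05 kb before it in sham (71669240 to 71669429, score 15.2, top 16.4%). It lay inside the neighbouring gene Unc13a, which serves synaptic vesicle priming. The highest sham peak (71729563 to 71729752, top 4.20%) lay 39.1 kb downstream, and 4 of the 6 sham peaks were within 39.1 to 43.9 kb downstream, outside any gene. SCI had no peak in that stretch.

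Tyk2, the kinase that also serves interferon and interleukin-12 receptors, had more SCI peaks within 50 kb than most genes of its length, and 4 of the 6 lay 18.2 to 47.96 kb from it. The gene (gene ID 54721) lies on the minus strand of chromosome 9 from 21104068 to 21131393. It had 6 SCI peaks, where the median of its length class is 2 and 4.84% of the class had as many or more. This was the highest SCI count of the 10 genes, singled out after all 10 were compared, and it was not tested. Its sham peaks were 8, where the median is 6. Within 10 kb of the gene there were 2 SCI peaks, and inside it 1. The SCI peaks scored from 5 to 9.95, and the sham peaks from 5 to 20.1. The shared position nearest the gene lay before its start, between Tyk2 and Cdc37, which encodes a kinase co-chaperone. It was formed by an SCI peak (21133684 to 21133847, score 7.21, top 51.5%) and a sham peak (21133699 to 21133888, score 20.1, top 8.75%). That sham peak was the highest at Tyk2.

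A second shared position near Tyk2 lay 37.7 kb upstream, inside the phosphodiesterase gene Pde4a. With it Tyk2 had 3 shared SCI peaks, which met 2 sham peaks, and 3.61% of its length class had 3 or more shared SCI peaks. That share was read after all 10 genes were compared, and it was not tested. In Pde4a 1 sham peak (21169141 to 21169330, score 8.31, top 48.0%) overlapped 2 SCI peaks. The overlaps were 12 bp at 21168989 to 21169152 (5.87, top 76.1%) and 53 bp at 21169278 to 21169441 (6.24, top 68.0%). Overlaps at the other 7 shared SCI peaks ran from 57 to 164 bp. The best SCI rank at Tyk2, the top 25.8%, belonged to an unshared peak 47.96 kb downstream (21056023 to 21056186). Inside Tyk2 itself were 1 SCI peak, at the lowest score of the list, and 2 sham peaks, the higher of them in the top 15.4%.

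Il6st, the gene of gp130, had no shared position, and its SCI peaks were low. It (gene ID 16195) lies on the plus strand of chromosome 13 from 112464070 to 112506860. Its 3 SCI peaks scored 7.37, 5.32 and 5, and its 9 sham peaks scored from 5 to 22.9. In genes of like length the medians are 2 SCI and 6 sham peaks, and 25.9% of genes had as many sham peaks or more. The highest SCI peak, at 112444762 to 112444925 in the top 49.97%, lay 19.2 kb before the start, and the lowest lay 546 bp beyond the end of the gene. The highest sham peak, at 112516532 to 112516721 in the top 6.22%, lay 9.77 kb downstream, on the side of Il31ra, the gene of a gp130-related receptor. The sham peak 997 bp before the start (112462979 to 112463168) scored 7.92, in the top 52.2%. Inside the gene were 1 SCI and 3 sham peaks.

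Il6ra, the gene of the ligand-binding interleukin-6 receptor chain, had as many SCI as sham peaks within 50 kb. At that window it was the only one of the 10 genes without a surplus in sham. Within 10 kb it had 2 SCI and 3 sham peaks, and inside the gene 1 and 2. The gene (gene ID 16194) lies on the minus strand of chromosome 3 from 89869324 to 89913196. Its 4 SCI peaks scored 10.4, 6.35, 5.93 and 5.87, and its 4 sham peaks scored 30.6, 23.6, 5.61 and 5.09. In genes of like length the medians are 2 SCI and 6 sham peaks. The whole sham list is 2.45 times as long as the SCI list, so more sham than SCI peaks is the usual case. The highest sham peak, at 89916462 to 89916651, lay 3.36 kb before the start and ranked 2274, in the top 2.56%, the best sham rank of the 10 genes. No SCI peak overlapped it. The SCI peak nearest the start lay 9.21 kb before it. The shared position was inside the gene, 19.3 kb from the start, and low in both lists, at 89893778 to 89893941 in SCI (6.35, top 66.6%) and 89893857 to 89894046 in sham (5.09, top 92.4%). The highest SCI peak (89854721 to 89854884, top 23.9%) lay downstream inside She, an adaptor protein gene.

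Lifr, the receptor chain for leukaemia inhibitory factor that joins gp130, had no SCI peak inside the gene and no shared position. The gene (gene ID 16880) lies on the plus strand of chromosome 15 from 7090610 to 7197489. Its 2 SCI peaks scored 10.5 and 7.00, and its 5 sham peaks scored 8.62, 6.72, 5.93, 5.28 and 5. The higher SCI peak, at 7197954 to 7198117 in the top 23.4%, lay 546 bp beyond the downstream end of the gene. The highest sham peak, at 7129052 to 7129241 in the top 45.6%, was the one 426 bp before the first listed start. That start lies within the RefSeq gene, which begins farther upstream. Inside the gene lay 3 sham peaks, all outside the promoter windows. In genes of like length the medians are 3 SCI and 7 sham peaks.

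Osmr, the receptor chain for oncostatin M, held the most SCI peaks inside a gene among the 10, and none of its peaks was shared. In its length class 49.9% of genes had no shared position. It (gene ID 18414) lies on the minus strand of chromosome 15 from 6813568 to 6874968, 216 kb from Lifr. Its 5 SCI peaks scored 8.23, 5.59, 5.32, 5.08 and 5, and its 8 sham peaks scored from 5 to 19.2. The 4 SCI peaks inside the gene were the 4 lower ones, between the top 81.8% and the top 92.3%. The highest SCI peak (6799866 to 6800029, top 39.2%) lay downstream inside Rictor, which encodes a subunit of an mTOR complex. The highest sham peak (6828609 to 6828798, top 9.79%) lay inside Osmr, and 5 of the 8 sham peaks did. Peaks of the 2 lists lay inside the same gene without overlapping.

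Cntfr and Il11ra1, the receptor chains for ciliary neurotrophic factor and interleukin 11, are neighbours on chromosome 4 and had the fewest peaks. Cntfr (gene ID 12804, minus strand, 41657498 to 41697091) had 1 SCI and 4 sham peaks, and Il11ra1 (gene ID 16157, plus strand, 41760443 to 41769473) had 1 SCI and 3 sham peaks. The genes are 63.4 kb apart, so their windows overlap, and 1 SCI and 2 sham peaks belong to both. That single SCI peak (41719928 to 41720091, score 8.23, top 39.3%) met a sham peak (41720035 to 41720224, score 11.3, top 29.0%). It lay inside Dctn3, a dynactin subunit gene, 22.9 kb from Cntfr and 40.4 kb from Il11ra1. Both genes had the same highest sham peak, which (41744826 to 41745015, score 14.8, top 17.4%) lay between them in Gm42274 and met no SCI peak. Cntfr itself held 1 peak, in sham (41669224 to 41669413, score 14.0, top 19.2%), and Il11ra1 held none. The medians of genes of like length are 2 SCI peaks for each gene, and 6 sham peaks for Cntfr and 5 for Il11ra1. Mouse Il11ra1 has a closely related copy, Il11ra2, which had no peak in either list. No source used here says how reads matching both copies were placed.

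**Figure D4:**
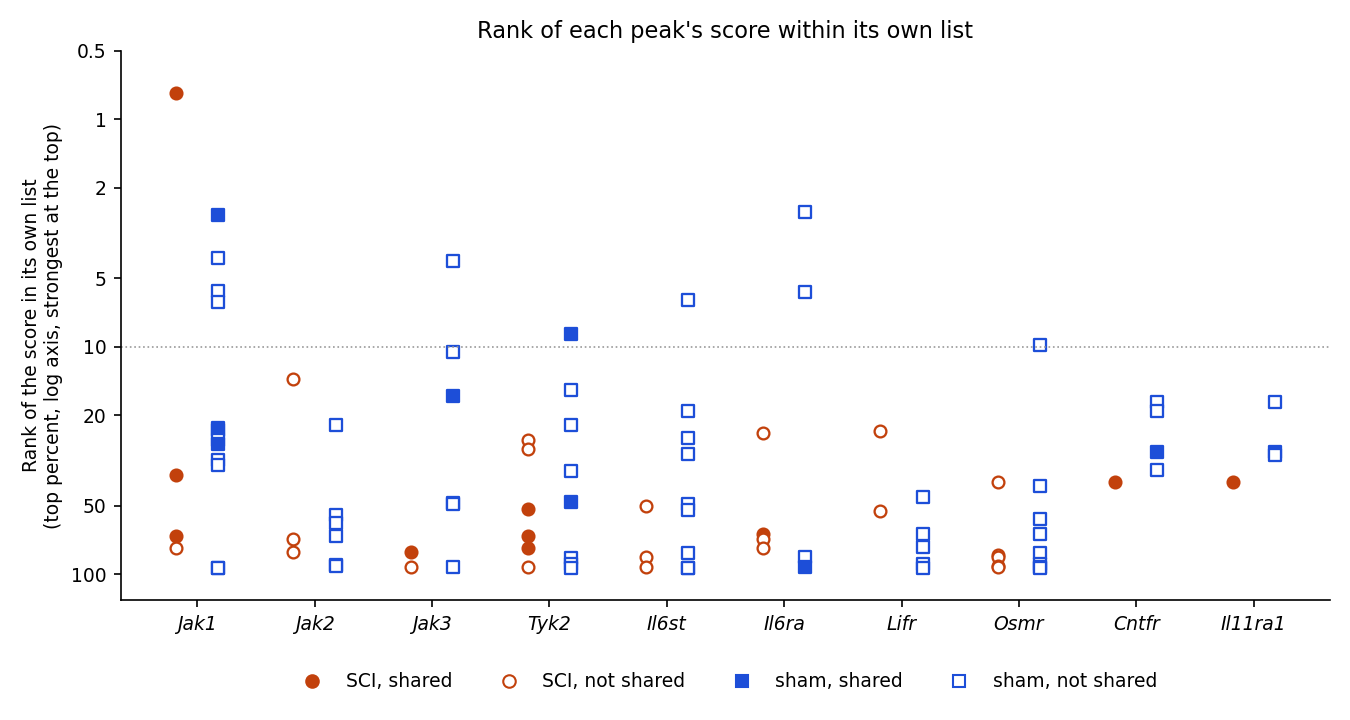
Rank of each peak's score within its own list as a top percent (y axis, log scale, strongest at the top) for each gene, with SCI circles left of sham squares and shared positions filled. The dotted line marks 10%. A single SCI circle, at Jak1, lies above it, beside 10 sham squares.

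Width, q-value and score form of the peaks were not used in the choice by position. All 30 SCI peaks were 164 bp wide and all 63 sham peaks 190 bp. The deposited −log10 value in the q-value column lay between 3.22 and 4.36 for the SCI peaks and between 3.27 and 4.05 for the sham peaks, nearly the ranges of the whole lists. By place, 11 of the SCI peaks lay inside 1 of the 10 genes, 11 in another gene alone and 8 outside every gene, and of the sham peaks 25, 15 and 23. At the lowest score of 5 stood 4 SCI peaks, 13.3%, and 7 sham peaks, 11.1%, where it was 7.68% of the whole SCI list and 6.14% of the whole sham list.

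Sharing went with the form of the score. If 1 is added to a score, the sum divided by 2 and the result squared, some scores give a whole number within 0.0001. Such scores were held by 12 of the 30 SCI peaks, and none of these was shared, while 9 of the other 18 were. In the sham list 11 of the 63 peaks had this form and none was shared, while 8 of the other 52 were. The lowest score of 5 has this form, so these peaks include the 4 SCI and 7 sham peaks at that score. In the whole lists 33.1% of SCI peaks and 22.9% of sham peaks had this form. Over the whole lists 4.82% of such SCI peaks and 0.727% of such sham peaks were shared, and of the others 30.0% in SCI and 11.3% in sham. Among genes without a shared position, every SCI peak of Lifr had this form, as did 2 of the 3 at Jak2, 2 of the 3 at Il6st and 2 of the 5 at Osmr. Among genes with one, 1 of the 2 SCI peaks at Jak3, 2 of the 6 at Tyk2 and 1 of the 4 at Il6ra had it. The highest SCI peaks of Jak2, Tyk2 and Lifr were of this form, and its part in their ranks and in the sharing was not tested.

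Other genes of the pathway had peaks about as often. Of 54 genes of ligands, related receptors, STAT factors and inhibitors, 46 had an SCI peak within 50 kb, 85.2%, and 53 a sham peak, 98.1%. Over all protein-coding genes the shares were 84.2% and 95.6%. A shared position lay at 19 of the 54, 35.2%, beside 6 of the 10 JAK and gp130 family receptor genes. Of all protein-coding genes 41.5% had one. By role, shared positions were found at 4 of 10 cytokine genes, 3 of 8 genes of related receptors, 3 of 13 other receptors that use JAK kinases, 3 of 7 STAT genes and 6 of 16 genes of inhibitors and phosphatases. The best SCI rank belonged to Il12rb2, a chain of the interleukin-12 receptor, with its best peaks in the top 0.127% in SCI and the top 1.04% in sham. Both of its 2 SCI peaks were shared, and neither lay inside the gene.

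The other genes named by rank had lower peaks. Stat3 and its neighbour Stat5a have the same best SCI peak, in the top 3.58%. Socs3, the feedback inhibitor of gp130 signalling, had its best SCI peak in the top 7.35% and its best sham peak in the top 18.4%, both outside the gene. Pias1, which encodes a SUMO ligase, had 4 SCI peaks inside the gene with the best in the top 10.2%. The best SCI peaks of Ebi3, Ghr, Csf3r and Ifnar1 lay in the top 10.8, 11.7, 13.6 and 13.9%. An SCI peak lay inside Stat3, Stat5a, Ghr and Pias1, and none lay inside Il12rb2, Socs3, Ebi3, Csf3r or Ifnar1.

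Numbers of peaks alone do not single the main genes out. Among 21886 other protein-coding genes, 13 had the same numbers as Jak1 (4 SCI, 12 sham and 3 shared SCI peaks), and the nearest in length was Tsga10, at 111.9 kb beside 113.3 kb. For Jak2 164 genes had equal numbers, with Prdm15 nearest in length, and for Il6st 73, with Sox13 nearest.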

How the data were processed

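STAT3 ChIP-seq peak lists of 1 SCI and 1 sham library were used, each matched to its sample by title, and no other column of samples was left over. Reads were aligned with Bowtie2 to mm10, per the submitters' processing notes, and no source used here names the peak caller, the control it used or its threshold. The authors deposited a score per peak, of 5 or more in both lists, and a −log10 q-value per peak. Neither list gives read counts or depth.

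Peaks outside the 19 autosomes, X and Y were left out. Ranks run from the highest score, ties take the better rank, and a top percent is the rank as a percent of the list. Genes and promoter windows came from RefSeq GRCm38.p6, whose chromosomes have the mm10 coordinates. All 10 genes matched, and exons are not part of the table. Start sites and strand came from the promoter table. Genes of like length are those in the same of 10 equal classes of protein-coding gene length, averaged over the 10 genes. With 1 library per condition no test was run. The genes, the pathway list and the rules were chosen with earlier results of these data known. All 10 genes are named, with the best peak of each list and every shared position, and from each role of the pathway list the 2 genes with the best SCI rank, of which 1 is not reported here. A search for the STAT motif under the peaks was not run, since it needs a genome, and only promoter windows were searched. The counting steps were tested on simulated data. Alternatives were narrower windows, score and list-length limits, placement by any overlap and 2 other rules for sharing. The software was matplotlib 3.10.9 and scipy 1.17.1, with pandas 2.3.3 and numpy 2.4.6, under Python 3.11.15.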

Additional observations from a re-analysis of the deposited data

How the results depend on the processing

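Over 8 alternatives, 33 of 48 recomputed values stayed within 1.5 times the reported count or inside its 95% interval. Of 60 counts per gene in narrower windows, 18 stayed within 1.5 times and 42 did not. With the gene alone and no flanks, 6 genes had an SCI peak, 11 SCI and 25 sham peaks were counted, and 2 genes had a shared position. With a window of 5 kb there were 15 SCI and 31 sham peaks and 3 genes with a shared position, and with 10 kb 18 SCI and 35 sham peaks. Keeping only peaks from the median score of each list upward, 10 SCI and 36 sham peaks and 3 genes with a shared position were left. With equal numbers of top-scoring peaks, 30 sham peaks stood beside the 30 SCI peaks. When an overlap of at least 0.5 of the length of both peaks was required, 13.3% of the SCI peaks were shared, at 2 genes, Jak1 and Tyk2, since 4 overlaps were that long. Narrower windows and score or list-length limits can only keep or lower these counts, and the stricter overlap rule only the number of shared peaks. How far each count fell was not fixed by this. Peaks placed by any overlap gave the same 30 SCI and 63 sham peaks. No paired analysis was possible because each condition has 1 STAT3 library, and no replicate could be left out. The number of libraries and the unknown depth limit every comparison of SCI with sham.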

Other observations

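Looked for after the Jak1 values were seen, 3 neighbouring SCI peaks that are all shared within 6072 bp occurred at 4 places in the SCI list, with the length set by the Jak1 group itself. The others lay on chromosome 1 at 59737562 to 59742192, near Nop58 and Bmpr2, and on chromosome 3 at 104716869 to 104722886, near Tafa3, and at 107473821 to 107475496, near Kcnc4 and Slc6a17. Bmpr2 encodes a receptor of bone morphogenetic proteins, Kcnc4 a potassium channel and Slc6a17 a neuronal transporter. In all, 7 protein-coding genes, 0.032%, lay within 50 kb of such a place.

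The peak nearest the limit of 50 kb from within was the SCI peak 49.97 kb from Jak1, in the top 76.8% of its list. The nearest SCI peak beyond the limit at Jak1 lay 62.5 kb away, in the top 17.9%. At Tyk2 the last sham peak inside lay 46.2 kb away, in the top 21.995%, and the first outside 51.3 kb away, in the top 63.9%. A shared position between Osmr and Lifr lay 56.97 kb from Osmr, with an SCI peak at 6931857 to 6932020 in the top 91.9% and a sham peak in the top 21.6%. A sham peak 60.5 kb from Cntfr, in the top 1.63%, ranked higher than any sham peak within 50 kb of the 10 genes.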
